A study of Mus musculus with 27 samples.

Results

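The replication genes were compared in dorsal skin of C3H mice. The set holds 49 genes of DNA replication and S phase, named as a list and matched by gene symbol, out of 54532 genes in the deposited table. RNA sequencing gave 27 libraries in 3 groups of 9. TDM skin received TDM10842, which the series title calls an agonist of the thyroid hormone receptor, in a solvent, as 2 applications of 60 µL at 0 and 24 h. Vehicle skin received the solvent alone in the same way, and Blank skin received nothing. The sources used here give no age, sex or time of sampling. Whether each library is a mouse of its own is not stated in the labels. The p-values therefore rest on the spread among libraries, which may be technical in part.

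A cell copies its DNA in S phase. Before that, in G1, the origin recognition complex with CDC6 and CDT1 loads the MCM helicase onto origins, a step called licensing. Kinases then recruit CDC45 and the GINS complex, which turn the helicase on, and polymerases, the sliding clamp PCNA and the clamp loader RFC follow. Transcription factors of the E2F family switch on many of these genes late in G1. In skin the cells that divide most are those of the basal epidermis and of the matrix of growing hair follicles, the layer of cells that builds the hair.

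Count totals lay between 15996657 and 17357395 reads in TDM, 15412332 and 17001952 in Vehicle, and 15705220 and 17599066 in Blank libraries. All 49 genes had at least 1 read in every library and passed the filter on low counts, as did 17232 genes in all. Apart from Fen1, which had 3 to 35 reads per library, no member had fewer than 16 reads in any library, and the highest count was 2775. The protocol text speaks of retina. Of 6 photoreceptor genes none reached the filter, Crx had no read in any library, and their summed level was at most 1.92 CPM (counts scaled to library size), whereas 7 basal keratinocyte genes summed to 4270 or more in every library.

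Replication genes were higher in TDM skin than in either other group, and each of the 10 roles, from licensing to chromatin copying, had at least 1 gene that rose in both comparisons. Against Vehicle, 38 of the 49 members rose and none fell (edgeR's quasi-likelihood test, Benjamini-Hochberg adjusted p under 0.05 over 17232 genes), where 12.0% of all genes tested were called higher and 11.7% lower. Against Blank, 47 rose and none fell, where 11.6% of all genes were called higher and 4.63% lower. The median log2 fold change of the members was 0.73 against Vehicle and 1.02 against Blank, beside 0.01 and -0.02 over all genes tested. All 49 members had a positive fold change in both comparisons, which share the TDM libraries. In bulk skin, more dividing cells and more RNA of these genes per cell cannot be told apart. Once a score of skeletal muscle genes entered the fit, 1 member passed over Vehicle, where 0.749% of all genes were called higher. Over Blank 46 passed, where 12.7% of all genes were called higher. With a score of basal keratinocyte genes 2 passed over Vehicle, where 1.21% of all genes were called higher. Over Blank 47 passed, where 12.4% of all genes were called higher. The members' median log2 fold change over Vehicle was 0.57 and 0.63 in these fits, all 49 being positive.

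The sizes were moderate and graded. In TDM over Vehicle the log2 fold changes lay between 0.20 and 1.33, and 7 members reached a 2-fold difference, beside 2.41% of all genes. In TDM over Blank they lay between 0.22 and 1.81, and 26 members reached it, beside 2.87% of all genes. For 22 members every TDM library had a higher FPKM (reads per length of gene and depth, as the authors computed it) than every Blank library, which held for 1.82% of all genes. No member had such a gap between TDM and Vehicle (0.232% of all genes). For 40 members all 9 TDM libraries lay above the Vehicle median. The fold change was larger against Blank than against Vehicle for each of the 49 genes. How many of all genes did the same was not counted in either case.

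**Figure D1:**
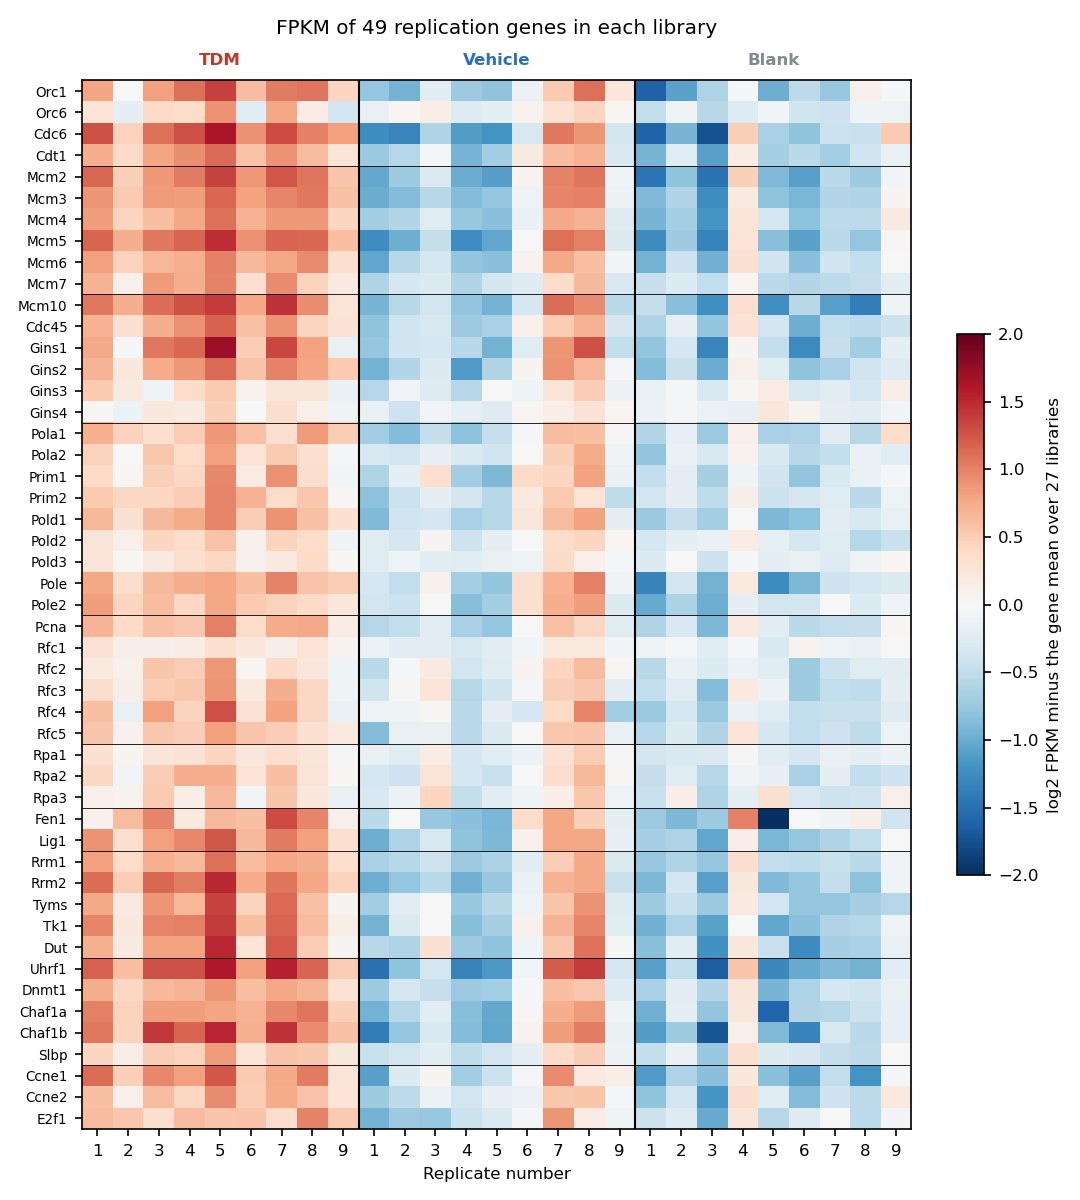
FPKM of the 49 replication genes (rows, grouped by role with lines between roles) in the 27 libraries (columns, by replicate number), as log2 FPKM minus the mean of that gene over all libraries; red is above and blue below that mean. TDM columns are red in most rows, TDM 5 most of all and TDM 9 and TDM 2 least. Most Vehicle and Blank columns are blue, apart from Vehicle 7, Vehicle 8 and, more weakly, Blank 4.

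The Vehicle group was uneven. Summed over the 49 members, TDM libraries had 1540 to 2700 CPM with a median of 2140, Vehicle libraries 857 to 2180 with a median of 1160, and Blank libraries 809 to 1480 with a median of 982. Vehicle 7 and Vehicle 8, at 2040 and 2180 CPM, stood among the TDM libraries, and the other 7 Vehicle libraries lay between 857 and 1290 CPM. These 2 libraries were the highest pair of their group in 48 of the 49 members, the exception being Rpa3, in which Vehicle 8 and Vehicle 3 led. Each of the pair was above the highest Blank library in 46 members, and they were above the TDM median in 26 and 28. The coefficient of variation of FPKM was largest in Vehicle in 46 of the 49 members, with a median of 18.7% in TDM, 42.8% in Vehicle and 25.1% in Blank. Without both libraries, an alternative chosen after seeing the data, 47 members rose in TDM over Vehicle, where 17.3% of all genes were called higher, and the median log2 fold change was 1.02. Leaving out the highest Vehicle libraries raises that value by construction.

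Among TDM libraries, TDM 5 was the highest of its group in 43 members and of all 27 libraries in 42. TDM 9 was the lowest of its group in 29 members and TDM 2 in 17. Among Blank libraries, Blank 4 was the highest in 38 members and Blank 3 the lowest in 26. Within each group, the same few libraries were thus at the top or the bottom for most members.

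Of the 4 origin recognition and licensing genes 3 rose over Vehicle and 4 over Blank, with Cdc6 at the top of the 49 over Vehicle and Orc6 without a call. Cdc6 (chromosome 11), the loader that joins the origin complex to the helicase, had 1.53, 2.39 and 3.46 FPKM as the lowest, median and highest TDM library, 0.444, 0.734 and 2.31 in Vehicle, and 0.332, 0.706 and 1.60 in Blank. All 9 TDM libraries were above the Vehicle median, and 5 of them were above the highest Vehicle library. Its rise over Vehicle was the largest of the 49 genes, 2.51-fold (log2 fold change 1.33 ± 0.33 SE, adjusted p = 0.00659), and that over Blank was 2.99-fold (1.58 ± 0.33, adjusted p = 0.00156).

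Cdt1, the partner of CDC6 in helicase loading, had 8.34, 11.6 and 15.3 FPKM in TDM, 3.67, 5.66 and 11.3 in Vehicle, and 3.31, 4.82 and 7.73 in Blank. The TDM and Blank libraries did not overlap. It rose over Vehicle (log2 fold change 0.82 ± 0.20, adjusted p = 0.00656) and over Blank (1.19 ± 0.20, adjusted p = 0.000279). Orc1, the largest subunit of the origin complex, ran at 0.853, 1.49 and 2.19 FPKM in TDM, 0.439, 0.735 and 1.81 in Vehicle, and 0.276, 0.550 and 0.913 in Blank. Its rise was 0.89 ± 0.26 over Vehicle (adjusted p = 0.0155) and 1.38 ± 0.26 over Blank (adjusted p = 0.000677). Orc6, another subunit, did not pass in TDM over Vehicle (0.24 ± 0.15, adjusted p = 0.236), at a median of 7.52 FPKM in TDM and 6.35 in Vehicle, and passed over Blank (0.56 ± 0.15, adjusted p = 0.00881).

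All 6 subunits of the MCM helicase, the ring that unwinds DNA at the fork, rose in both comparisons. Their log2 fold changes were 0.76 to 1.15 over Vehicle and 1.01 to 1.67 over Blank, with medians of 0.90 and 1.31. The subunits sit in 1 complex, and their mean FPKM differed by a factor of at most 2.32 in TDM, 2.57 in Vehicle and 3.17 in Blank, which is a narrow range beside the factor of 11.6 in TDM among the genes that activate the helicase.

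Mcm5 (chromosome 8) had 15.9, 23.1 and 29.0 FPKM as the lowest, median and highest TDM library, 4.40, 7.47 and 22.5 in Vehicle, and 4.12, 6.10 and 12.6 in Blank. The lowest TDM library was above every Blank library and was passed only by Vehicle 7 and Vehicle 8. It rose 2.21-fold over Vehicle (log2 fold change 1.15 ± 0.29, adjusted p = 0.00775) and 3.19-fold over Blank (1.67 ± 0.30, adjusted p = 0.000379). Mcm2 had 6.94, 10.3 and 12.8 FPKM in TDM, 2.32, 4.09 and 10.5 in Vehicle, and 1.80, 2.87 and 6.96 in Blank. In Mcm2 a single Blank library, at 6.96 FPKM, reached the lowest TDM library. It rose 2.0-fold over Vehicle (1.0 ± 0.29, adjusted p = 0.0151) and 3.03-fold over Blank (1.60 ± 0.29, adjusted p = 0.000497). Mcm7 gave the smallest fold change of the ring over Vehicle with the smallest standard error, at 0.76 ± 0.16 (adjusted p = 0.00243), with medians of 21.4 FPKM in TDM, 10.6 in Vehicle and 9.60 in Blank. Mcm3, Mcm4 and Mcm6 rose by 0.92, 0.87 and 0.84 over Vehicle.

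E2F-type sites were looked for in the promoters, taken from RefSeq on GRCm38.p6 as windows of 300 bases, from 250 before to 50 after each transcript start. Of the 49 members 41 were matched, with 49 promoters. The motif was TTTCCCGC, TTTCGCGC, TTTGCCGC or TTTGGCGC on either strand. It stood in 16 of 49 member promoters (32.7%), 1 or more for 16 of 41 members, and in 744 of 32851 promoters in the table (2.26%). The CCAAT box, as CCAAT on either strand, stood in 57.1% of member promoters and 37.4% of all, and TTTGAA, the core of the element called CHR that is known from cell cycle genes, in 12.2% and 17.9%. In the members with the E2F motif the median log2 fold change was 0.80 over Vehicle and 1.12 over Blank, and in the 25 matched members without it 0.73 and 0.94. A match is a run of letters and does not show that a factor binds there.

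4 of these windows are shown, for Cdc6, with the largest fold change over Vehicle, and for 3 subunits of the ring that differ in their matches. Mcm5 and Mcm6 were picked after the search for the number of matches they hold. Each is written from 5′ to 3′ on the strand of the gene, with matches to the E2F motif in capitals. Cdc6 has 1 match, beginning 138 bases before the start. Mcm5 has 2 that overlap, from 153 and 149 bases before the start. Mcm6 has 3, of which a pair overlaps, the first beginning 110 and the last 47 bases before the start. The Mcm2 window holds none, nor do those of E2f1 and Pcna, and Mcm2, Mcm5 and Mcm6 all rose.
Cdc6, chr11:98907901-98908200, plus strand: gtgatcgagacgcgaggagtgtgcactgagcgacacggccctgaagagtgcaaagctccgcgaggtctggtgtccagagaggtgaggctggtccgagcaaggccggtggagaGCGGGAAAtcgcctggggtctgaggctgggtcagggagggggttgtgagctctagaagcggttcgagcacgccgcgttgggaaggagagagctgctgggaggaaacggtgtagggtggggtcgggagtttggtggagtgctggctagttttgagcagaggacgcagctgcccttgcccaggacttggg
Mcm5, chr8:75109259-75109558, plus strand: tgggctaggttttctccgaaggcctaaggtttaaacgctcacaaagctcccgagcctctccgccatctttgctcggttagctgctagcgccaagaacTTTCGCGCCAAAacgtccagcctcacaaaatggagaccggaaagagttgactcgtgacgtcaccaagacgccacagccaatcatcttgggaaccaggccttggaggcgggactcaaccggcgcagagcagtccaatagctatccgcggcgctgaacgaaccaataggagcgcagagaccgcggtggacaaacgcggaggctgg
Mcm6, chr1:128359656-128359955, minus strand: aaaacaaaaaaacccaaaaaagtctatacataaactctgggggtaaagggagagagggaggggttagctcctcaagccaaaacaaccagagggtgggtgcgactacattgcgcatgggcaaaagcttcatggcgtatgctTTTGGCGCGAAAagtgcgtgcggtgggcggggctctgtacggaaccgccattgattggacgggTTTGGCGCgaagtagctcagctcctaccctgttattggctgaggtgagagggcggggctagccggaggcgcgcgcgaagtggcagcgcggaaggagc
Mcm2, chr6:88898731-88899030, minus strand: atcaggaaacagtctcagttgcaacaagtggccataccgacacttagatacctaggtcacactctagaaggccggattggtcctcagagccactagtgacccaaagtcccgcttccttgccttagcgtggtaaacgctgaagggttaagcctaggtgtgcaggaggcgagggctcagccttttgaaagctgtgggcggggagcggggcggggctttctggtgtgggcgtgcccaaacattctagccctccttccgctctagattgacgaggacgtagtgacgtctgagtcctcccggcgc

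Of the 6 genes that turn the loaded helicase on, 4 rose in both comparisons and 2 passed in neither. Mcm10, which is needed for the helicase to begin unwinding, had 1.15, 2.0 and 2.61 FPKM in TDM, 0.50, 0.664 and 2.08 in Vehicle, and 0.368, 0.539 and 1.22 in Blank. In Mcm10, 8 of 9 TDM libraries were above the highest Blank library. It rose 2.15-fold over Vehicle (log2 fold change 1.10 ± 0.28, adjusted p = 0.00762) and 3.18-fold over Blank (1.67 ± 0.29, adjusted p = 0.000297). Gins2, a GINS subunit, had 3.01, 4.32 and 5.70 FPKM in TDM, 1.18, 2.14 and 4.85 in Vehicle, and 1.30, 1.90 and 2.79 in Blank. TDM and Blank did not overlap in Gins2, whose rise was 0.82 ± 0.22 over Vehicle (adjusted p = 0.00962) and 1.23 ± 0.22 over Blank (adjusted p = 0.000405). Cdc45 and Gins1 rose by 0.83 and 0.88 over Vehicle, the call of Gins1 being lost in 6 of the 27 fits that left out 1 library.

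The other subunits of GINS gave smaller differences, although the proteins form 1 complex. Gins4 had 19.1, 22.4 and 29.1 FPKM in TDM, 15.7, 20.0 and 25.5 in Vehicle, and 17.8, 19.2 and 24.3 in Blank, a level well above those of its partners, and the 3 ranges overlapped. Its log2 fold changes were the smallest of the 49 genes in both comparisons, 0.20 ± 0.09 over Vehicle (adjusted p = 0.127) and 0.22 ± 0.09 over Blank (adjusted p = 0.118). Gins3 had medians of 3.46 FPKM in TDM, 2.76 in Vehicle and 2.66 in Blank and did not pass either (0.30 ± 0.13, adjusted p = 0.0885, and 0.35 ± 0.13, adjusted p = 0.0685). They were the members that missed the threshold in TDM over Blank, although all 49 had an unadjusted p under 0.05 there, as did 47 in TDM over Vehicle. Of the 17232 genes tested, 5117 did so over Blank and 6422 over Vehicle.

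**Figure D2:**
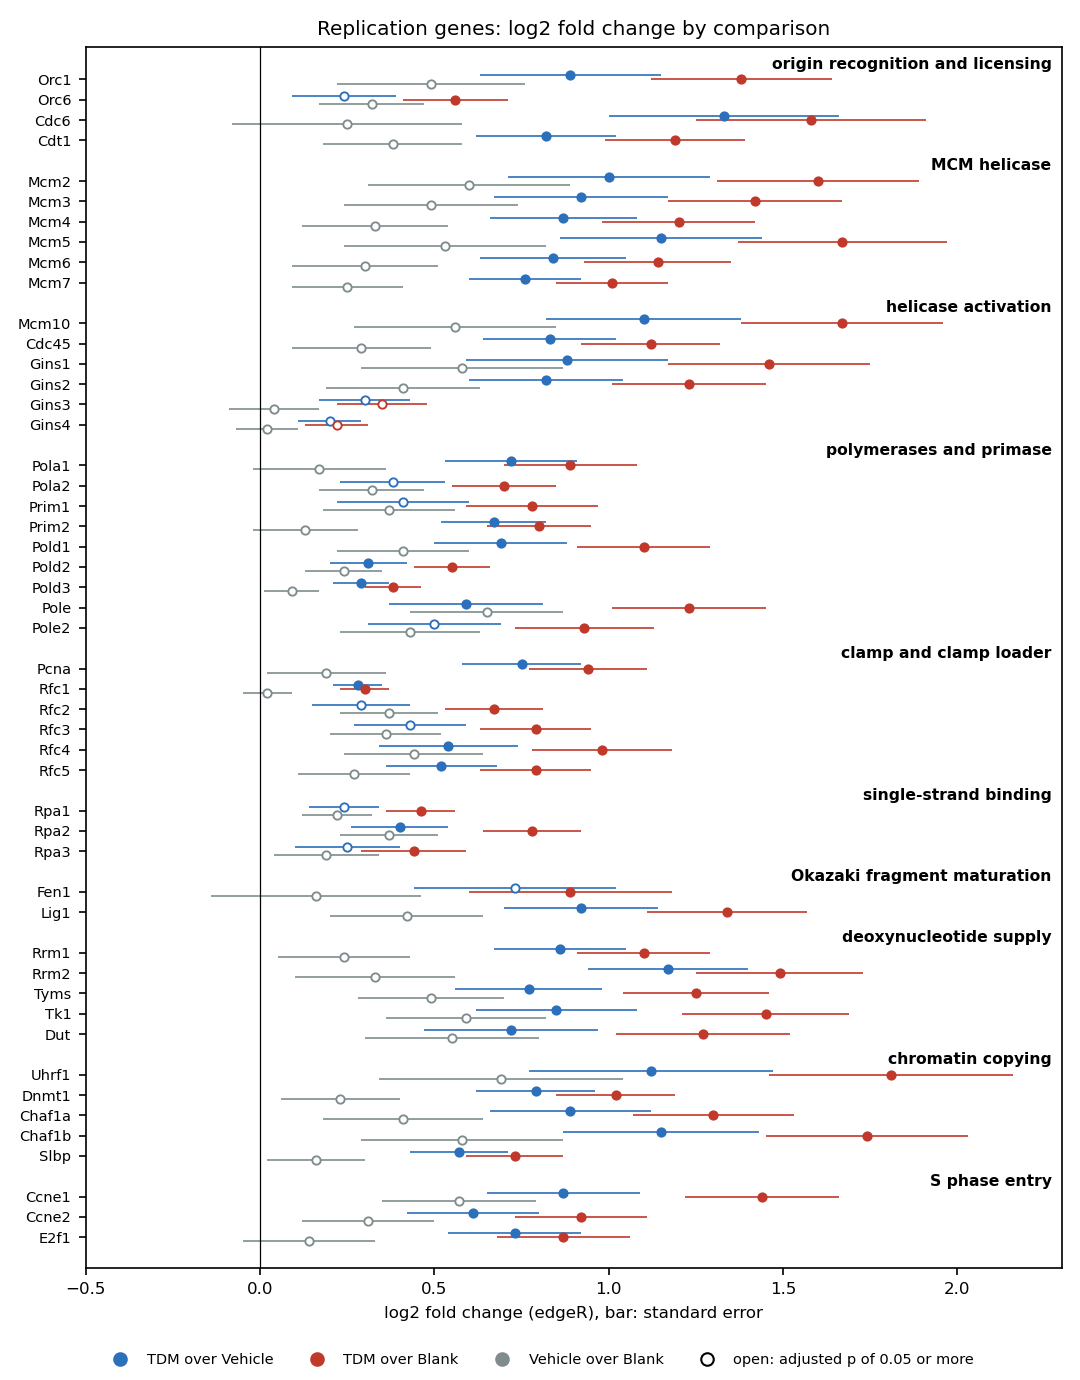
Log2 fold change (x axis) of each of the 49 replication genes (y axis, by role) in TDM over Vehicle, TDM over Blank and Vehicle over Blank, with standard errors; filled points had an adjusted p under 0.05 in edgeR's quasi-likelihood test. The points for TDM over Blank lie right of those for TDM over Vehicle in every gene, and no point for Vehicle over Blank is filled.

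Of the polymerase and primase genes, 6 of 9 rose over Vehicle and 9 of 9 over Blank, with median log2 fold changes of 0.50 and 0.80. Pola1, the catalytic subunit of polymerase alpha, which lays the primer with primase, had 2.32, 2.65 and 3.40 FPKM in TDM, 1.02, 1.35 and 2.85 in Vehicle, and 1.13, 1.27 and 2.41 in Blank. Of the 9 TDM libraries, 3 were above the highest Vehicle library and 7 above the highest Blank library. It rose over Vehicle (0.72 ± 0.19, adjusted p = 0.00924) and over Blank (0.89 ± 0.19, adjusted p = 0.0020).

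Pole, the catalytic subunit of polymerase epsilon, the leading-strand enzyme, had 1.88, 2.31 and 2.93 FPKM in TDM, 0.857, 1.40 and 2.98 in Vehicle, and 0.586, 1.11 and 1.70 in Blank. TDM and Blank did not overlap, while the highest Vehicle library was above all TDM libraries. Its rise over Vehicle was close to the threshold (0.59 ± 0.22, adjusted p = 0.0479, and not passed in 21 of the 27 fits that left out 1 library), and that over Blank was 1.23 ± 0.22 (adjusted p = 0.000369). Its accessory subunit Pole2 had 2.08, 2.47 and 3.21 FPKM in TDM, 0.995, 1.49 and 3.20 in Vehicle, and 0.896, 1.40 and 1.78 in Blank, and it rose over Blank (0.93 ± 0.20, adjusted p = 0.00159) but did not pass over Vehicle (0.50 ± 0.19, adjusted p = 0.0576).

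Prim2, the large primase subunit, and Pold1, the catalytic subunit of polymerase delta, rose by 0.67 and 0.69 over Vehicle. Pold2 and Pold3, further subunits of polymerase delta, rose by 0.31 and 0.29, and Pold2 did not pass in 17 of the 27 fits that left out 1 library. Pola2, the accessory subunit of polymerase alpha, did not pass over Vehicle (0.38 ± 0.15, adjusted p = 0.0616), nor did Prim1, the catalytic primase subunit (0.41 ± 0.19, adjusted p = 0.115). Both rose over Blank, by 0.70 and 0.78.

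Pcna, the sliding clamp that holds polymerases on DNA, had the highest mean FPKM of the 49 genes. Its lowest, median and highest FPKM were 32.1, 43.5 and 58.7 in TDM, 17.0, 24.6 and 43.9 in Vehicle, and 15.7, 21.1 and 33.3 in Blank. All 9 TDM libraries were above the Vehicle median and 8 above the highest Blank library. Pcna rose 1.68-fold over Vehicle (log2 fold change 0.75 ± 0.17, adjusted p = 0.00431) and 1.92-fold over Blank (0.94 ± 0.17, adjusted p = 0.000423). The near-identical copy Pcna-ps2 had a mean of 532.8 reads where Pcna had 1259.7, and the sources used here do not state how reads were split between them.

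RFC loads that clamp. Rfc4 had 6.57, 9.90 and 17.7 FPKM in TDM, 4.48, 6.72 and 14.3 in Vehicle, and 4.33, 5.35 and 6.63 in Blank. A single TDM library was above the highest Vehicle library. Its rise over Vehicle was near the threshold (0.54 ± 0.20, adjusted p = 0.0460, not passed in 21 of the 27 fits that left out 1 library), and that over Blank was 0.98 ± 0.20 (adjusted p = 0.00108).

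The loader subunits differed in size. Rfc1, the large subunit, had 9.67, 10.3 and 11.6 FPKM in TDM, 7.44, 8.56 and 10.7 in Vehicle, and 7.53, 8.71 and 9.76 in Blank. Small as it was, its rise passed the test over Vehicle (0.28 ± 0.07, adjusted p = 0.00656) and over Blank (0.30 ± 0.07, adjusted p = 0.00336), with the lowest coefficient of variation of any member in TDM (6.23%). Rfc5 rose by 0.52 over Vehicle. Rfc2 (0.29 ± 0.14, adjusted p = 0.124) and Rfc3 (0.43 ± 0.16, adjusted p = 0.0509) did not pass over Vehicle and rose by 0.67 and 0.79 over Blank.

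The RPA complex coats single-stranded DNA at the fork. Its median log2 fold changes were the lowest of the 10 roles, 0.25 over Vehicle and 0.46 over Blank. Rpa2 rose over Vehicle (0.40 ± 0.14, adjusted p = 0.0389), a call lost in 11 of the 27 fits that left out 1 library, while Rpa1 (0.24 ± 0.10, adjusted p = 0.0626) and Rpa3 (0.25 ± 0.15, adjusted p = 0.228) did not pass. Over Blank, Rpa1, Rpa2 and Rpa3 rose by 0.46, 0.78 and 0.44, with Rpa3 lost in 11 of those 27 fits. Rpa1, the DNA-binding subunit, had medians of 15.6 FPKM in TDM, 12.1 in Vehicle and 11.4 in Blank, and its highest library of the 27, at 18.7 FPKM, was a Vehicle library.

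Lig1, the ligase that seals Okazaki fragments on the lagging strand, had 9.04, 12.8 and 17.1 FPKM in TDM, 3.67, 5.76 and 12.3 in Vehicle, and 3.52, 4.71 and 7.92 in Blank. TDM and Blank did not overlap, and 6 TDM libraries were above the highest Vehicle library. It rose over Vehicle (0.92 ± 0.22, adjusted p = 0.00604) and over Blank (1.34 ± 0.23, adjusted p = 0.000258). Fen1, the nuclease that trims the same fragments, was read at 0.347 to 0.808 FPKM in TDM, 0.174 to 0.561 in Vehicle and 0.0715 to 0.663 in Blank. At these counts it did not pass over Vehicle (0.73 ± 0.29, adjusted p = 0.0650) and passed over Blank (0.89 ± 0.29, adjusted p = 0.0361, lost in 9 of the 27 fits that left out 1 library). The gene shares 1909 exon bases with an antisense gene, and the sources used here do not state whether the counting used strand.

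All 5 genes of deoxynucleotide supply rose in both comparisons. Rrm1 and Rrm2 encode the subunits of ribonucleotide reductase, which makes deoxynucleotides. Rrm2 had 14.1, 21.0 and 29.3 FPKM in TDM, 5.25, 7.14 and 17.5 in Vehicle, and 4.88, 6.05 and 12.0 in Blank. TDM and Blank did not overlap, and 6 TDM libraries were above the highest Vehicle library. The log2 fold change was 1.17 ± 0.23 over Vehicle (adjusted p = 0.00192) and 1.49 ± 0.24 over Blank (adjusted p = 0.000147). Rrm1 had 6.72, 8.74 and 11.4 FPKM in TDM, 3.20, 3.97 and 8.98 in Vehicle, and 3.11, 3.75 and 6.81 in Blank, and rose by 0.86 ± 0.19 over Vehicle (adjusted p = 0.00340) and 1.10 ± 0.19 over Blank (adjusted p = 0.000293).

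Tyms, which makes thymidylate, had 3.48, 5.31 and 8.58 FPKM in TDM, 1.98, 2.89 and 6.26 in Vehicle, and 1.97, 2.12 and 3.83 in Blank. It rose over Vehicle (0.77 ± 0.21, adjusted p = 0.0107) and over Blank (1.25 ± 0.21, adjusted p = 0.000254). Tk1, the thymidine kinase of the salvage route, had 5.17, 9.44 and 12.6 FPKM in TDM, 2.48, 4.04 and 9.43 in Vehicle, and 2.28, 3.12 and 4.82 in Blank. Here TDM and Blank did not overlap, and the rise was 0.85 ± 0.23 over Vehicle (adjusted p = 0.0107) and 1.45 ± 0.24 over Blank (adjusted p = 0.000201). Dut, which removes dUTP, rose by 0.72 over Vehicle, a call lost in 10 of the 27 fits that left out 1 library, and by 1.27 over Blank.

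Among genes that copy chromatin and its marks, Uhrf1 and Chaf1b held the largest differences from Blank of the 49 genes. The role as a whole did not stand apart. Its median log2 fold change over Blank was 1.30, beside 1.31 for the MCM helicase, and its lowest gene, Slbp, was at 0.73. Uhrf1, which brings DNMT1 to newly copied DNA, had 14.4, 23.0 and 30.6 FPKM in TDM, 3.61, 7.90 and 26.6 in Vehicle, and 3.23, 5.27 and 14.8 in Blank. Its coefficient of variation of 82.4% in Vehicle was the widest of any member in any group. It rose 3.50-fold over Blank, the most of the 49 genes (log2 fold change 1.81 ± 0.35, adjusted p = 0.000865), and 2.17-fold over Vehicle (1.12 ± 0.35, adjusted p = 0.0212). Chaf1b, a subunit of the histone chaperone CAF-1, had 3.38, 5.13 and 7.16 FPKM in TDM, 0.938, 2.0 and 5.05 in Vehicle, and 0.754, 1.51 and 2.66 in Blank. The TDM and Blank libraries of Chaf1b did not overlap. It rose by 1.15 ± 0.28 over Vehicle (adjusted p = 0.00645) and 1.74 ± 0.29 over Blank (adjusted p = 0.000235).

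Dnmt1, the methyltransferase that copies DNA methylation, had 14.1, 18.4 and 21.3 FPKM in TDM, 6.99, 9.11 and 17.6 in Vehicle, and 6.09, 8.77 and 13.7 in Blank. It rose by 0.79 ± 0.17 over Vehicle (adjusted p = 0.00330) and 1.02 ± 0.17 over Blank (adjusted p = 0.000266). Chaf1a, which shares 4648 exon bases with Ubxn6 on the other strand, rose by 0.89 over Vehicle. Slbp, which binds histone mRNA, rose by 0.57.

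All 3 genes of S phase entry rose in both comparisons. E2f1, an activating E2F factor, had 7.89, 9.31 and 12.5 FPKM in TDM, 3.26, 5.22 and 11.6 in Vehicle, and 3.13, 5.26 and 7.48 in Blank. TDM and Blank did not overlap in E2f1, and Vehicle 7 alone of the Vehicle libraries exceeded the lowest TDM library. It rose over Vehicle (0.73 ± 0.19, adjusted p = 0.00747) and over Blank (0.87 ± 0.19, adjusted p = 0.00184). Ccne1, a cyclin E that activates CDK2, had 2.5, 3.67 and 4.91 FPKM in TDM, 0.979, 2.04 and 3.99 in Vehicle, and 0.911, 1.17 and 2.41 in Blank, and rose by 0.87 ± 0.22 over Vehicle (adjusted p = 0.00705) and 1.44 ± 0.22 over Blank (adjusted p = 0.000121). Ccne2, the other cyclin E, had 3.09, 4.27 and 5.53 FPKM in TDM, 1.75, 2.64 and 4.20 in Vehicle, and 1.27, 2.15 and 3.65 in Blank. Its rise was 0.61 ± 0.19 over Vehicle (adjusted p = 0.0198) and 0.92 ± 0.19 over Blank (adjusted p = 0.00115).

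**Figure D3:**
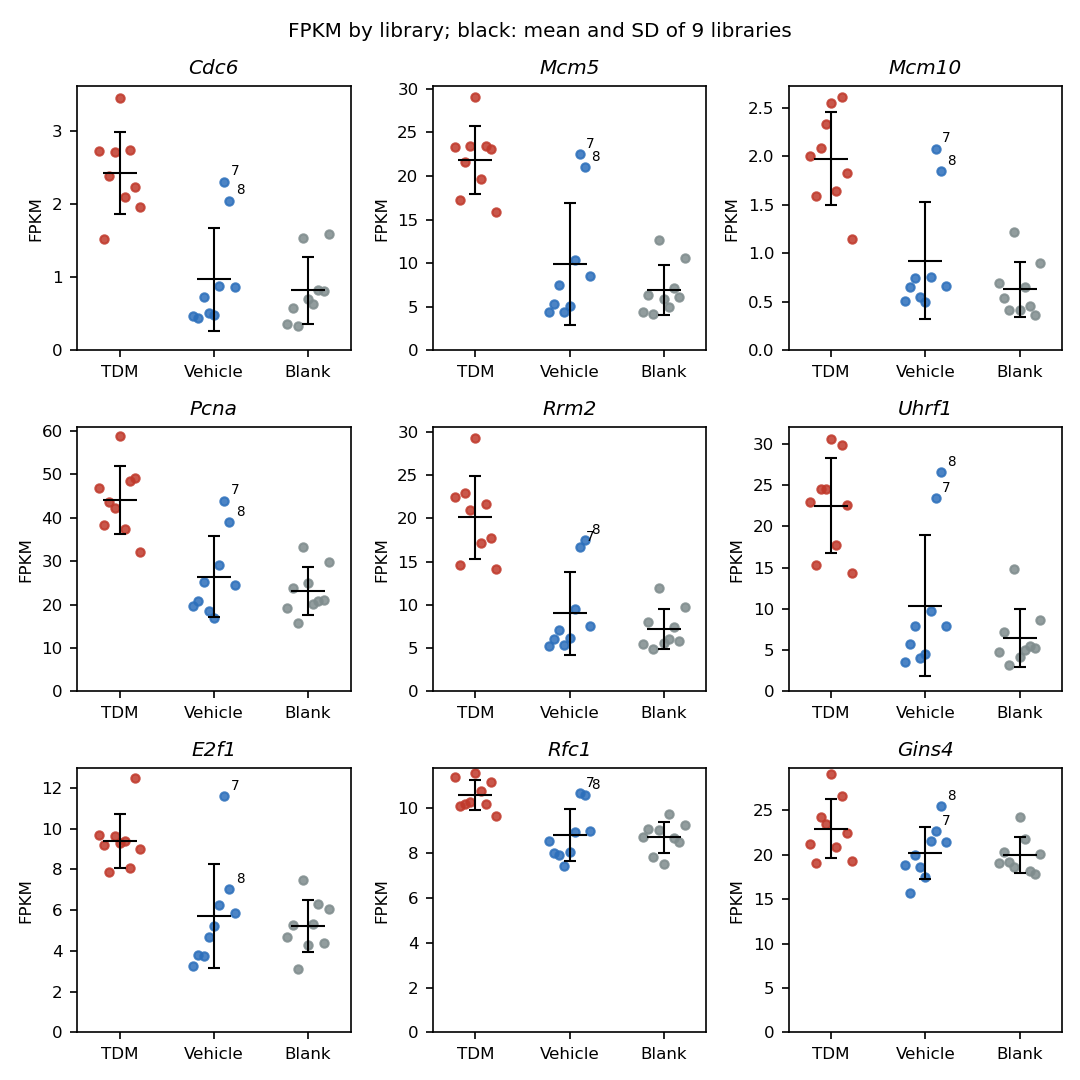
FPKM (y axis, starting at 0) of 9 replication genes in each library of TDM, Vehicle and Blank, with the mean and SD of the 9 libraries of a group in black; Vehicle 7 and Vehicle 8 are numbered. The TDM points of Cdc6, Mcm5 and Rrm2 lie above most others, with Vehicle 7 and 8 among them, and the 3 groups overlap in Gins4.

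The solvent alone was compared with no treatment. No member passed in Vehicle over Blank, where 0.894% of all genes were called higher and 1.86% lower (154 and 321 genes). These counts over all genes moved with the method: 635 and 798 with DESeq2, 236 and 302 with upper-quartile scaling, 96 and 130 with voom, and 1 and 1 with no filter on low counts. The median log2 fold change was 0.33, beside 0.02 over all genes, and 16 members had an unadjusted p under 0.05. So did 4468 of the 17232 genes tested. No member reached a 2-fold difference (0.435% of all genes), and none had every Vehicle library above every Blank library (0.0290% of all genes). The highest were Uhrf1 (0.69 ± 0.35, adjusted p = 0.208), Pole (0.65 ± 0.22, adjusted p = 0.0815) and Mcm2 (0.60 ± 0.29, adjusted p = 0.190), and the lowest Rfc1 (0.02), Gins4 (0.02) and Gins3 (0.04). DESeq2 called 1 member, Pole, where it called 3.69% of all genes higher, so the share of members, 1 of 49, was not above that of all genes. Without Vehicle 7 and Vehicle 8, an alternative chosen after seeing the data, the median was 0.02 and 22 members were below 0. Leaving out the highest Vehicle libraries lowers these values by construction, so this fit says nothing about the solvent.

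A wider list of 94 replication and G1/S genes was read in the same fits. Over Vehicle, 48 rose and 1 fell, where 12.0% of all genes tested were called higher and 11.7% lower. Over Blank, 65 rose and 3 fell, where 11.6% of all genes were called higher and 4.63% lower. These shares also stand beside the counts of the lists that follow. Their median log2 fold changes were 0.38 and 0.62.

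Among further licensing and firing genes 5 of 12 rose over Vehicle and 9 over Blank. The lowest adjusted p over Vehicle were those of Gmnn (geminin, which blocks CDT1 after licensing; 0.79 ± 0.20, adjusted p = 0.00659) and Topbp1, which helps origins to fire (0.50 ± 0.14, adjusted p = 0.0113). Of 16 further fork genes 10 rose over Vehicle and 13 over Blank. They included Clspn, the checkpoint mediator claspin (1.14 ± 0.26, adjusted p = 0.00484), at median FPKM of 2.62 in TDM, 0.898 in Vehicle and 0.685 in Blank, and Tipin, a fork protection factor (0.59 ± 0.13, adjusted p = 0.00435). Of 15 further nucleotide synthesis genes 5 rose over Vehicle and none fell, with Dck, a salvage kinase, at 0.65 ± 0.16 (adjusted p = 0.00534) and Umps, of pyrimidine synthesis, at 0.59 ± 0.14 (adjusted p = 0.00592). Over Blank 10 rose and 2 fell, Tk2 (-0.32, adjusted p = 0.0389) and Rrm2b (-0.26, adjusted p = 0.0381), calls lost in 10 and 8 of the 27 fits that left out 1 library. Tk2 is the mitochondrial thymidine kinase and Rrm2b the reductase subunit used outside S phase.

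Of 9 further genes of chromatin replication 6 rose over Vehicle and all 9 over Blank, led over Vehicle by Supt16, part of the histone chaperone FACT (0.58 ± 0.12, adjusted p = 0.00217), and Rbbp4, a histone-binding protein shared with CAF-1 (0.38 ± 0.08, adjusted p = 0.00245). Of 12 checkpoint and fork repair genes 8 rose over Vehicle and 9 over Blank, with Brca2 at 0.56 ± 0.13 over Vehicle (adjusted p = 0.00413). Of 15 drivers of the G1/S step 8 rose over Vehicle and 11 over Blank, with Cdk2, the kinase of cyclin E, at 0.49 ± 0.13 (adjusted p = 0.00785) and Skp2, a ubiquitin ligase subunit, at 0.74 ± 0.19 (adjusted p = 0.00802).

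The list of G1/S brakes was mixed. Of 15 genes 6 rose and 1 fell over Vehicle, and 4 rose and 1 fell over Blank. The median log2 fold change was 0.10 and 0.15. The lowest adjusted p over Vehicle belonged to the repressive E2F factors E2f8 (0.63 ± 0.15, adjusted p = 0.00592) and E2f7 (0.89 ± 0.22, adjusted p = 0.00618), which are themselves known as E2F targets. The gene that fell over Vehicle was E2f6, another repressor of the family (-0.47, adjusted p = 0.00924), and the gene that fell over Blank was Cdkn1c, the CDK inhibitor p57 (-0.70, adjusted p = 0.0200). In Vehicle over Blank, Orc4 (0.28, adjusted p = 0.0358) and Cdc7 (0.77, adjusted p = 0.0351) rose and Cdkn2b (-0.74, adjusted p = 0.0341) fell, calls lost in 9, 9 and 8 of the 27 fits that left out 1 library. Of the 94 genes 2 thus rose and 1 fell there, where 0.894% of all genes were called higher and 1.86% lower. E2f6, Cdkn1c, Tk2, Rrm2b, Orc4, Cdc7 and Cdkn2b were named after their values were seen.

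Markers of other cells moved with the replication genes. Of all genes tested, 12.0% were called higher and 11.7% lower over Vehicle, and 11.6% and 4.63% over Blank. Of 12 mitosis genes 11 rose over Vehicle and 12 over Blank, with sums of 467 to 1060 CPM in TDM, 261 to 953 in Vehicle and 178 to 461 in Blank. Of 8 genes of the hair matrix and inner root sheath 6 rose over Vehicle and 7 over Blank, at 30.3 to 273 CPM in TDM, 8.02 to 94.9 in Vehicle and 9.34 to 50.1 in Blank. Vehicle 7 and Vehicle 8 held the highest Vehicle sums of this list, 78.2 and 94.9 CPM. Of 5 melanocyte genes 4 rose over Vehicle and 5 over Blank, at 144 to 703 CPM in TDM, 31.1 to 528 in Vehicle and 60.8 to 230 in Blank. The part of these cells in the replication result was not tested.

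Genes of muscle and of the epidermis differed as well, and the same shares of all genes stand beside their counts. Of 12 skeletal muscle genes 11 fell over Vehicle and 1 over Blank, with sums of 17700 to 45100 CPM in TDM, 25100 to 87100 in Vehicle and 27300 to 63700 in Blank. Of 7 basal keratinocyte genes 6 fell over Vehicle and none over Blank, with 4440 to 6790 CPM in TDM, 4510 to 12900 in Vehicle and 4270 to 8080 in Blank. Of 7 suprabasal keratinocyte genes 3 rose over Vehicle, and 1 fell over Blank. In Vehicle over Blank 3 of these 7 fell, where 1.86% of all genes were called lower. The median sums of this list were 2140 CPM in TDM, 1320 in Vehicle and 3350 in Blank. Of 5 sebaceous gland genes 3 fell over Vehicle and 4 over Blank, and of 6 fibroblast genes 3 rose over Vehicle and none over Blank. Vehicle 7 and Vehicle 8, both high in replication genes, had 25100 and 78000 CPM of muscle genes. Of 8 intestinal epithelium genes 4 were tested, and 3 of them fell over Vehicle and 1 over Blank, with sums of 2.07 to 8.56 CPM in TDM, 3.85 to 167 in Vehicle and 3.0 to 39.1 in Blank. Vehicle 3, at 167 CPM, and Vehicle 4, at 46.3, were the highest of all libraries in this list. Without Vehicle 3, 34 members rose over Vehicle, at a median log2 fold change of 0.72. The share of all genes called in that fit is not given here.

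With the muscle score, the mean log2 CPM of that list, as a covariate, 1 member, Mcm7, passed in TDM over Vehicle (adjusted p = 0.0332), and with the basal keratinocyte score 2, Mcm7 (0.0419) and Rrm2 (0.0474), passed. The members' median standard error was 0.24 and 0.23 rather than 0.19, and 36 and 38 of them had an unadjusted p under 0.05. Of the 17232 genes tested, 2810 and 3592 did. The calls over all genes fell to 129 higher and 104 lower with the muscle score, and to 209 higher and 115 lower with the basal keratinocyte score, against 2070 and 2020 without a score.

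**Figure D4:**
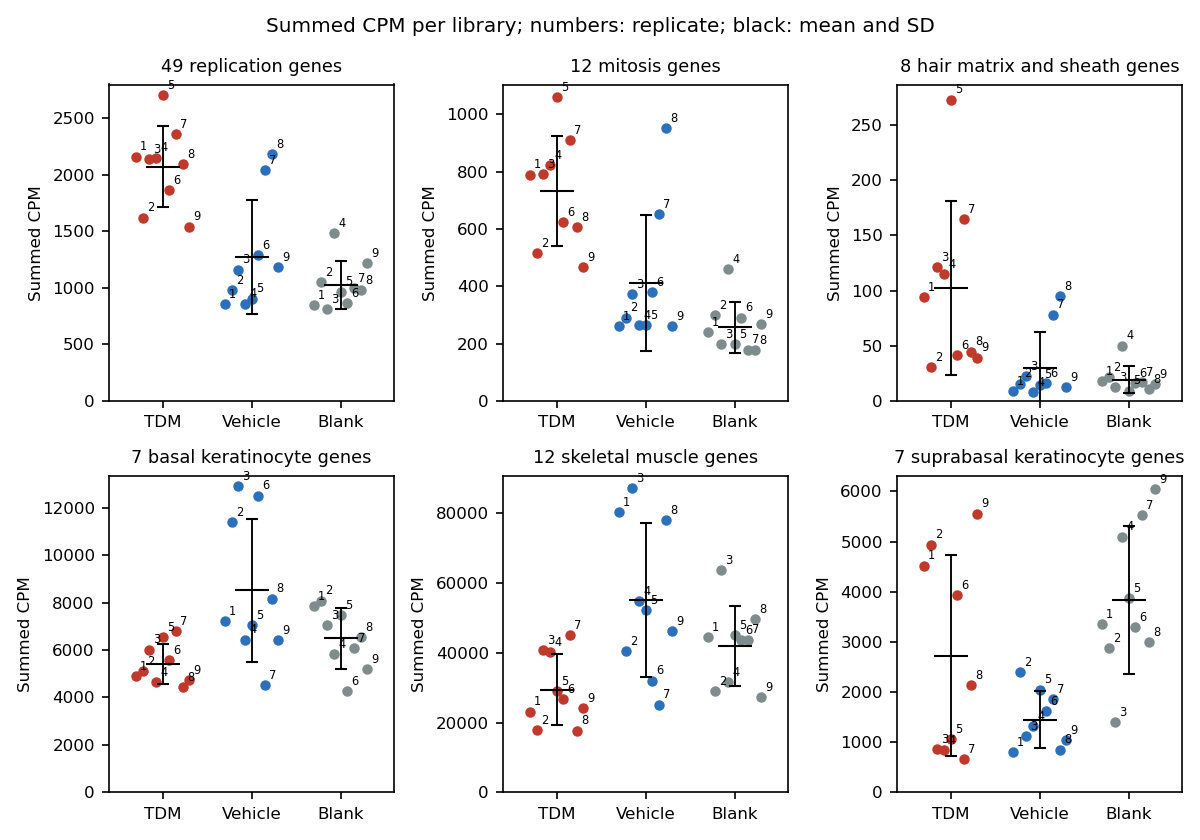
Summed CPM (y axis, starting at 0) of the 49 replication genes and of 5 lists of marker genes in each library, labelled with its replicate number, with the mean and SD of the 9 libraries of TDM, Vehicle and Blank in black. Vehicle 7 and Vehicle 8 stand apart from the other Vehicle libraries in replication, mitosis and hair matrix genes, and lie far from each other in muscle genes.

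Counting limits touch single members. Of the 49 genes 15 share exon bases with a gene on the opposite strand, and 3 of them, Chaf1a, Gins2 and Fen1, share at least 1000, so their reads cannot be told apart from those of the partner if strand was not used. In the authors' deposited table, 36 members had an adjusted p under 0.05 and were higher in TDM than in Vehicle, 48 in TDM than in Blank, and 1 in Vehicle than in Blank, with median log2 fold changes of 0.73, 1.01 and 0.33. How many of all genes the authors' results call was not counted, so these numbers have no share of all genes beside them.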

How the data were processed

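RNA from dorsal skin was sequenced in 27 libraries, 9 a group, grouped by their labels. The authors deposited raw read counts and FPKM per gene, with their own log2 fold changes and p-values, in 1 table per the file headers. The submitters' processing notes name Bowtie 0.12.2 and mm9, whereas 98.26% of the 54495 genes matched to GENCODE M21 have its GRCm38 coordinates. Another 6 columns of group means were not used.

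Counts were filtered (filterByExpr, minimum count 10, total 15), which kept 17232 genes with 99.86% of the reads, scaled with TMM and tested by quasi-likelihood in edgeR 4.0.16 under R 4.3.3 (glmQLFit with robust settings, glmQLFTest), all 27 libraries in the same fit. A call needs an adjusted p below 0.05 (Benjamini-Hochberg, over all genes tested), and this test gives the adjusted p-values of the report. Standard errors come from the fold change and its F statistic, as |log2 fold change| divided by the root of F. Sums are of TMM-scaled CPM, and levels are the authors' FPKM. Scores are mean log2 CPM with a prior count of 2. Fits were tested on simulated counts.

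The members and lists were chosen with earlier results of these data known. All 49 members are named, 22 chosen by role have values by group, and so do the 3 largest fold changes; the 3 smallest, members that did not pass and, of each other list, the 2 genes with the lowest adjusted p over Vehicle are given too, except 1 gene that is not reported here. The promoter windows of E2f1 and Pcna, first planned, are not shown, since they hold no match. Alternatives were DESeq2 1.42.0, limma 3.58.1 (voom with quality weights, and log2 of FPKM with 1 or 0.1 added), RLE and upper-quartile scaling, no filter or a mean of 1 CPM, the 2 groups alone, a replicate block, muscle and basal keratinocyte scores as covariates, and each library left out. A fit without Vehicle 7 and Vehicle 8 was added after seeing the data.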

Additional observations from a re-analysis of the deposited data

Results flagged for a closer look

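Of 147 sets of 9 libraries, each a member in a group, 2 had a library apart from the others by Dixon's test at the 95% level on log2 CPM, where chance flags about 1 in 20 sets. Tyms stood at 3.83 FPKM in Blank 4, the next Blank library being at 2.59. E2f1 stood at 12.5 FPKM in TDM 8, the next TDM library being at 9.69. No Vehicle library was found this way in any member. The test sets the extreme library against the next one, so 2 libraries that are high together hide each other. Vehicle 7 and Vehicle 8 were the highest pair of Vehicle in 48 members, so the test could not show whether they stand apart.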

How the results depend on the processing

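In TDM over Blank 45 to 48 members rose under all the alternatives. The share of all genes called higher there was 4.3% with no filter and 16.8% with voom, beside 11.6%. Of the 47 calls, 45 held in all 27 fits that left out 1 library (45 to 48 calls, median log2 fold change 0.97 to 1.16). In TDM over Vehicle the count was 32 to 45 in those fits, with a median of 0.66 to 0.86, and 32 of the 38 calls held in all of them; Pole, Rfc4, Pold2, Rpa2, Dut and Gins1 did not. It was 40 with DESeq2, 47 with voom, 34 with upper-quartile scaling, 31 with no filter, 33 with the 2 groups alone and 43 with limma on FPKM (either addition). The share of all genes called higher moved too. It was 12.9%, 20.8%, 9.93%, 4.13% and 9.47% in the first 5 of these, and 11.9% or 11.8% with limma, beside 12.0%. No such share is given here for the fits that left out 1 library. With the muscle score as a covariate 1 member and 0 of the 94 other genes passed, at a median log2 fold change of 0.57 for the members, where 0.749% of all genes were called higher. With the basal keratinocyte score 2 and 2 passed, at a median of 0.63 and where 1.21% were called higher; the cause was not tested. In TDM over Vehicle, Gins3, Pola2, Prim1, Pole2, Rfc2, Rfc3, Rpa1 and Fen1, without a call, passed in 1 to 5 of the 27 fits, among which each had that without Vehicle 7 or that without Vehicle 8, and Orc6, Gins4 and Rpa3 in none.

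In Vehicle over Blank, 0 members were called, 1 with DESeq2 (Pole; 3.69% of all genes were called higher there), and 0 to 1 in the fits that left out 1 library (Pole without Vehicle 5), with a median of 0.23 to 0.42. Of the 94 other genes 3 were called there, 5 with DESeq2, 1 with voom, 0 with no filter, either score or without Vehicle 7 and 8, and 0 to 6 with 1 library left out. Members turned below 0 in this comparison, none of them called. Where Vehicle 7 or Vehicle 8 was left out, values fall by construction, as these were the highest Vehicle libraries in nearly all members. With 1 library left out the ranges were -0.02 to 0.43 for Cdc6, -0.04 to 0.10 for Gins3, -0.03 to 0.06 for Gins4, -0.02 to 0.05 for Rfc1 and -0.06 to 0.22 for E2f1. With voom, Fen1 stood at -0.10, Cdc6 at -0.09, Rfc1 at -0.06, Prim2 at -0.04, Pola1 and Prim1 at -0.03, and Gins3, Gins4 and Dnmt1 at -0.01. With the muscle score, Gins4 stood at -0.01. Without Vehicle 7 and 8, Cdc6 stood at -0.39, Pola1 and E2f1 at -0.15, Gins3 and Fen1 at -0.12, Rrm1 and Rrm2 at -0.11, Mcm5 at -0.09, Prim2 and Rfc1 at -0.08, Gins4, Pcna and Dnmt1 at -0.07, Uhrf1 at -0.06, Mcm4, Mcm6 and Slbp at -0.05, Mcm3 at -0.04, and Mcm7, Mcm10, Cdc45 and Pold3 at -0.01.

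Replicate numbers showed no clear pairing of the libraries. Same-numbered deviations correlated at -0.399 to 0.329 in TDM and Vehicle, over 0.1 in 3 of 9 pairs. In TDM and Blank they correlated at -0.217 to 0.382, and in Vehicle and Blank at -0.331 to 0.264, over 0.1 in 4 of 9 pairs each. The same-numbered library had the highest correlation in 1, 3 and 3 of 9 cases. These values cannot settle whether a weak pairing exists, and no pairing was assumed. With the replicate block 39, 46 and 0 members were called in TDM over Vehicle, TDM over Blank and Vehicle over Blank. Of all genes, 11.3%, 10.7% and 1.29% were called higher in these 3 comparisons. Scaling moved the median of all genes by at most 0.034. Fen1 had the lowest read counts of the members, at 3 to 35 per library, and the cause was not tested.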
